A study of Mus musculus with 21 samples.

Results

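The genes described here are 42 DNA replication and S phase genes, whose products license and fire replication origins, unwind and copy DNA, supply deoxynucleotides, rebuild chromatin behind the fork or start S phase. They were taken by gene symbol, through Ensembl gene IDs, from the 51201 gene IDs that the CD4 and the CD8 gene count table each list. All 42 were found, and all 42 passed the filter on low counts in both cell types. RNA came from T cells of the spleen of C57BL/6J mice aged 35 days, and 21 polyA libraries were sequenced without strand information. In L-gp130fl/+;CD4Cre+/- mice (L-gp130), Cre opens 1 floxed copy of L-gp130, a form of the cytokine receptor chain gp130 that signals without its ligand. CD4Cre+/- mice (controls) carried the same Cre and no L-gp130. The Cd4 sequence that drives this Cre is active in the thymic precursors of both CD4+ and CD8+ T cells, so both lineages are targeted. CD4+ cells were pulled out on CD4 magnetic beads (6 L-gp130 and 6 control libraries), whereas CD8+ cells were left behind after other cells were removed (3 L-gp130 and 6 control libraries), in each case after red cell lysis. By the labels, 4 of 6 L-gp130 and 1 of 6 control CD4 libraries, and 2 of 3 L-gp130 and 4 of 6 control CD8 libraries, were from male mice. In each group the mouse numbers of the labels differ between libraries, and p-values measure the spread between these libraries.

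Libraries of CD4+ cells held 17781085 to 21226510 estimated counts in L-gp130 and 27855757 to 35869208 in controls, so depth went with genotype there. Libraries of CD8+ cells held 17217364 to 19476881 in L-gp130 and 17719183 to 19286396 in controls. Levels below are CPM (counts scaled to a common library size) with TMM factors, computed for CD4 and CD8 libraries separately. Socs3, a target of STAT3 downstream of gp130, had 263.8 to 432 CPM in L-gp130 and 116 to 140.2 CPM in control CD4 cells, and 444 to 514 CPM in L-gp130 and 115 to 171 CPM in control CD8 cells, which is the order the genotype labels give. Cd4 and Zbtb7b together had 670.1 to 999.9 CPM in L-gp130 and 905 to 1090.3 CPM in control CD4 cells, and Cd8a and Cd8b1 together 1338 to 1579 CPM in L-gp130 and 1781 to 2367 CPM in control CD8 cells, where both were called lower. In CD4 cells, Cd8a and Cd8b1 stood at 35.8 to 128 CPM in L-gp130, the highest in replicate 1, and 29.2 to 36.8 CPM in controls. L-gp130 CD4 replicate 1 stood apart in Il6st, the gene of gp130 itself, with 132 CPM against 269.8 to 339 CPM in the other L-gp130 CD4 libraries. Control CD4 replicate 5 is labelled female but had 0.118 CPM of Xist and 121 CPM of Ddx3y. Without both libraries, 37 of the 42 genes were still called higher in L-gp130 CD4 cells.

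DNA is copied only in S phase, and most of these genes are switched on together at the passage from G1 into S by E2F transcription factors once cyclin-dependent kinases have released them from the retinoblastoma protein. Origins are licensed in G1, when ORC, Cdc6 and Cdt1 load the ring-shaped MCM helicase, and they fire when Cdc45 and GINS join that ring. Resting splenic T cells sit outside the cycle and hold little of this machinery, whereas activated T cells, erythroid precursors, plasmablasts and germinal centre B cells divide in the spleen and make a lot of it.

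E2F proteins bind short GC-rich stretches near start sites, so the promoters of the genes were read first. RefSeq promoter sequences on build GRCm38.p6, from 250 bases before to 50 bases after a start, were found for 35 of the 42 genes. There was no matching entry for Prim2, Mcm4, Rfc2, Gins1, Gins2, Ccne2 and Pole. The letters searched were TTTCGCGC and TTTGGCGC on both strands, which read GCGCGAAA and GCGCCAAA on the other strand, and overlapping matches were merged into 1. They were present in 12 of the 35 genes (34.3%), against 251 of all 27025 genes (0.929%) or 267 of all 32851 promoters (0.813%) in the table. The letters CCAAT, on either strand, were present in 20 of the 35 genes (57.1%), against 41.1% of all genes and 37.4% of all promoters. Windows of 30 bases around the match are shown for 7 genes whose values are described below, with the matching letters in capitals. They lie at chr8:75109347-75109376 (plus strand) for Mcm5, chr4:108579416-108579445 (plus) for Orc1, chrX:93632275-93632304 (minus) for Pola1, chr5:151651200-151651229 (minus) for Rfc3, chr7:13278841-13278870 (plus) for Lig1, chr4:126556990-126557019 (plus) for Clspn and chr4:136172294-136172323 (plus) for E2f2. In Mcm5, Orc1, Pola1 and Rfc3 the match lies before the RefSeq start, and in Lig1, Clspn and E2f2 it lies after it. By the outer gene bounds of GENCODE, used for the exons, it lies after the start in Orc1 and Rfc3 and before it in E2f2.
Mcm5: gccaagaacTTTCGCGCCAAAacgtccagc
Orc1: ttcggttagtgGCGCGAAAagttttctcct
Pola1: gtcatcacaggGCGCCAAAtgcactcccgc
Rfc3: acgtcgcacgcTTTCGCGCtcgcgggaaaa
Lig1: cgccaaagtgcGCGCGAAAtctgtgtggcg
Clspn: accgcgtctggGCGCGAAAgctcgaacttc
E2f2: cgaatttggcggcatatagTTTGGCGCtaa
In Mcm5 matches from both strands overlap and were merged. The 250 bases before the start of Mcm6 (chr1:128359706-128359955, minus strand) are shown whole, because this promoter holds the letters at 2 places.
Mcm6: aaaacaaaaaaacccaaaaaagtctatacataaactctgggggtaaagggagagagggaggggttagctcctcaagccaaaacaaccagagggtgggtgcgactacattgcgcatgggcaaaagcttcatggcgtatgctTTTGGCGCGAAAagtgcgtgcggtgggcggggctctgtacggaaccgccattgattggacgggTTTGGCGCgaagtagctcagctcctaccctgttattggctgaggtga
A match is a description, not a site or a cause. The 12 genes with the E2F letters had a median log2 fold change (L-gp130 over control) of 0.92 in CD4 cells and 0.52 in CD8 cells, and the 23 genes without them had medians of 0.90 and 0.59.

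In CD4+ T cells the replication genes were higher in L-gp130 almost throughout. Of the 42 genes, 37 were called higher in L-gp130 and 0 lower by edgeR's quasi-likelihood test (Benjamini-Hochberg adjusted p under 0.05 over all 15016 genes tested), where 11.1% of all genes were called higher and 7.75% lower. All 42 fold changes were positive, with a median log2 fold change of 0.90, against -0.01 over all genes tested. In 19 of the 42 genes every L-gp130 library lay above every control library, which 7.68% of all genes tested showed, and all 19 were called, against 6.61% of all genes. The 5 genes that were not called were Orc1, Cdt1, Gins3, Pold1 and Chaf1b. In bulk samples a change in the share of cells that replicate and a change in RNA per cell cannot be told apart, and the libraries of a group differed widely. The 42 genes summed to 2051 to 3719 CPM in L-gp130 and 1408 to 1943 CPM in control CD4 cells. The highest L-gp130 library was replicate 1 or 6 for 41 of the 42 genes, the lowest was replicate 4 for 34 genes, and the lowest control was replicate 1, 2 or 6 for all 42. Without L-gp130 replicate 6 the count of genes called higher was 12, without control replicate 1, the only control CD4 library labelled male, it was 18, and over all 12 fits that left out a library it ran from 12 to 40. The 12 genes called in every such fit were Mcm2, Mcm3, Mcm4, Mcm5, Mcm6, Gins2, Pola1, Pole, Rfc2, Lig1, Dut and Clspn. Among the libraries labelled female alone, 2 of L-gp130 (replicates 2 and 6) and 5 of controls, 23 genes were called, where 1668 of all 16476 genes were called higher. These controls include replicate 5, which had Ddx3y counts and almost no Xist. Exons of 15 of the genes overlap another annotated gene (Mcm7, Orc1, Orc6, Cdc45, Gins2, Pole, Pole2, Rfc2, Rfc4, Rfc5, Fen1, Lig1, Tk1, Chaf1a and Ccne2). Reads from the shared bases may belong to either gene, so these values are less certain. The extent differs, from 78 of 11160 exon bases in Pole to 2758 of 4097 in Gins2, and in Pole2 the other gene lies on the same strand.

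**Figure D1:**
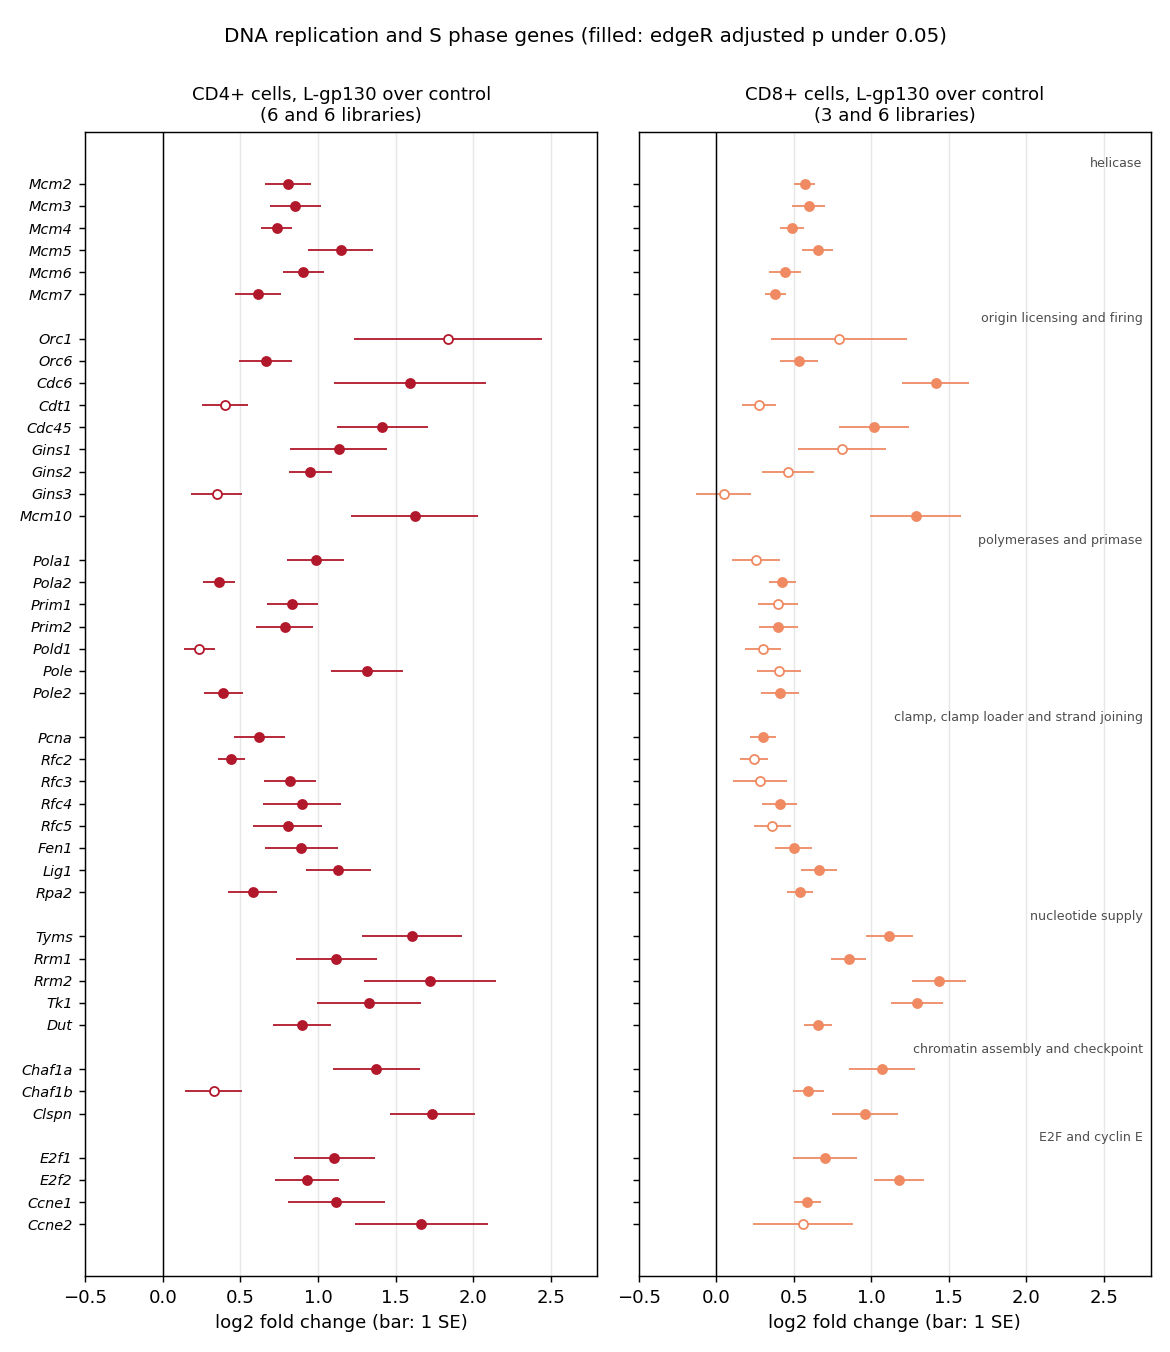
Log2 fold change (L-gp130 over control) of the 42 genes in CD4+ and CD8+ T cells, grouped by role, with standard errors as bars and filled points for an edgeR adjusted p under 0.05. All points lie above 0, with medians of 0.90 in CD4 cells and 0.55 in CD8 cells.

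The 6 subunits of the MCM helicase, the ring that unwinds the DNA, were all called higher in L-gp130 CD4 cells, with a median log2 fold change of 0.83. Mcm4, which had the smallest adjusted p of the 42 genes, had 123 to 181 CPM with a median of 154 in L-gp130 CD4 cells and 84.9 to 108 CPM with a median of 96.7 in control CD4 cells. All 6 L-gp130 libraries lay above all 6 controls, for a log2 fold change of 0.73 ± 0.10 (SE, n = 6 and 6, edgeR adjusted p = 0.000291). Mcm7, the subunit with the largest adjusted p, had 114 to 186 CPM with a median of 153 in L-gp130 and 87.5 to 121 CPM with a median of 105 in control CD4 cells. Its L-gp130 replicate 4 lay below 3 of the controls. The log2 fold change was 0.62 ± 0.15 (edgeR adjusted p = 0.0131), and the call was lost without L-gp130 CD4 replicate 6 (adjusted p = 0.121) and without control CD4 replicate 1 (adjusted p = 0.0891). Exons of Mcm7 overlap Cops6, Ap4m1, Mir25 and Mir93, so its counts may hold reads of these genes. Log2 fold changes of the other subunits, none with overlapping groups, were 0.81 ± 0.15 for Mcm2, 0.85 ± 0.17 for Mcm3, 1.15 ± 0.21 for Mcm5 and 0.90 ± 0.13 for Mcm6. Per length the subunits stood at 57.8 to 94.1 TPM (group means) in L-gp130 CD4 cells and 39.1 to 68.8 TPM in control CD4 cells.

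Among the 9 origin licensing and firing genes, 6 were called higher in L-gp130 CD4 cells, with a median log2 fold change of 1.13. Gins2, a subunit of the GINS complex that joins Cdc45 to the helicase, had 31.8 to 50.3 CPM with a median of 36.8 in L-gp130 and 17.9 to 26.9 CPM with a median of 20.9 in control CD4 cells. Its groups did not overlap, and the log2 fold change was 0.95 ± 0.14 (edgeR adjusted p = 0.00056), although 2758 of its 4097 exon bases overlap Gse1. Gins3, another subunit of that complex, had 9.60 to 15.7 CPM with a median of 11.3 in L-gp130 and 8.19 to 12.3 CPM with a median of 10.5 in control CD4 cells, with overlapping groups and 0.35 ± 0.17 on the log2 scale (edgeR adjusted p = 0.165). The largest fold changes of this role were in genes of origin recognition, loading and firing. Cdc6, which loads MCM rings, was at 1.60 ± 0.49 (edgeR adjusted p = 0.0435) and was lost in 7 of the 12 fits that left out a library. Mcm10, which helps origins fire, was at 1.62 ± 0.41 (edgeR adjusted p = 0.0181), and Cdc45, a part of the moving helicase, at 1.42 ± 0.29 (edgeR adjusted p = 0.00601). Orc1, the largest subunit of the origin recognition complex, had the largest log2 fold change of the 42 genes, 1.84 ± 0.61, yet was not called (edgeR adjusted p = 0.0544). Its 6 L-gp130 CD4 libraries spread over 3.46 to 17.2 CPM with a median of 8.14, across control values of 0.980 to 6.33 CPM with a median of 4.47. Gins1 was at 1.13 ± 0.31 (edgeR adjusted p = 0.0244) and Orc6 at 0.66 ± 0.17 (edgeR adjusted p = 0.0183). Cdt1, the partner of Cdc6 in loading, was at 0.40 ± 0.15 and was not called (edgeR adjusted p = 0.0753).

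Of the 7 polymerase and primase genes, 6 were called higher, with a median log2 fold change of 0.79. Pole, the catalytic subunit of polymerase epsilon on the leading strand, had 29.4 to 51.2 CPM with a median of 34.6 in L-gp130 and 10.6 to 21.1 CPM with a median of 15.3 in control CD4 cells. The lowest L-gp130 library lay above the highest control, and the log2 fold change was 1.32 ± 0.23 (edgeR adjusted p = 0.00233). Pold1, the catalytic subunit of polymerase delta on the lagging strand, was not called. It had 59.6 to 90.0 CPM with a median of 82.9 in L-gp130 and 60.3 to 69.8 CPM with a median of 64.3 in control CD4 cells, where L-gp130 replicate 2 lay below all 6 controls, and its log2 fold change was 0.24 ± 0.10 (edgeR adjusted p = 0.118). The primer-making genes Pola1, Prim1, Prim2 and Pola2 were at 0.99 ± 0.18, 0.84 ± 0.17, 0.79 ± 0.18 and 0.36 ± 0.10. Pole2, the second subunit of polymerase epsilon, was at 0.39 ± 0.13 (edgeR adjusted p = 0.0474), and that call was lost in 9 of the 12 fits that left out a library.

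All 8 genes of the sliding clamp, its loader and strand joining were called higher, with a median log2 fold change of 0.81. Lig1, the ligase that seals Okazaki fragments, had 59.4 to 116 CPM with a median of 83.4 in L-gp130 and 32.5 to 52.5 CPM with a median of 42.2 in control CD4 cells. The groups did not overlap, and its log2 fold change was 1.13 ± 0.21 (edgeR adjusted p = 0.00347). Rfc5, a subunit of the clamp loader, had the largest adjusted p of these genes, with 31.6 to 65.5 CPM with a median of 44.5 in L-gp130 and 18.2 to 32.3 CPM with a median of 28.7 in control CD4 cells. Only L-gp130 replicate 2 fell within the control range. Its log2 fold change was 0.81 ± 0.22 (edgeR adjusted p = 0.0256), and the call was lost without L-gp130 CD4 replicate 6 (adjusted p = 0.147), without control CD4 replicate 1 (adjusted p = 0.162) and without control CD4 replicate 3 (adjusted p = 0.0527). Pcna, the clamp, was at 0.62 ± 0.17, Fen1, which trims the fragment ends, at 0.89 ± 0.24, and Rpa2, which coats single strands, at 0.58 ± 0.16. The other loader subunits stood at 0.44 ± 0.09 for Rfc2, 0.82 ± 0.17 for Rfc3 and 0.90 ± 0.25 for Rfc4. Pcna has 2 annotated pseudogenes that could share its reads, and 2039 of the 2422 exon bases of Fen1 overlap Gm10143 and Tmem258.

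The 5 genes of deoxynucleotide supply were all called higher, with a median log2 fold change of 1.33. Tyms, which makes thymidylate and has an annotated pseudogene, had 19.3 to 60.1 CPM with a median of 45.2 in L-gp130 and 10.6 to 21.2 CPM with a median of 16.0 in control CD4 cells. L-gp130 replicate 4 lay among the 3 highest controls and the other 5 L-gp130 libraries above all controls. The log2 fold change was 1.60 ± 0.32 (edgeR adjusted p = 0.00565), and the call was lost without L-gp130 CD4 replicate 6 (adjusted p = 0.0662). Tk1, which salvages thymidine, had 32.6 to 71.4 CPM with a median of 49.7 in L-gp130 and 12.6 to 31.5 CPM with a median of 24.7 in control CD4 cells, with no overlap. Its log2 fold change was 1.33 ± 0.34 (edgeR adjusted p = 0.0183), and the call was lost without L-gp130 CD4 replicate 6 (adjusted p = 0.132) and without control CD4 replicate 1 (adjusted p = 0.104). Rrm2, the S phase subunit of ribonucleotide reductase, was at 1.72 ± 0.43 (edgeR adjusted p = 0.0175), its partner Rrm1 at 1.12 ± 0.26, and Dut, which keeps uracil out of DNA, at 0.90 ± 0.18.

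**Figure D2:**
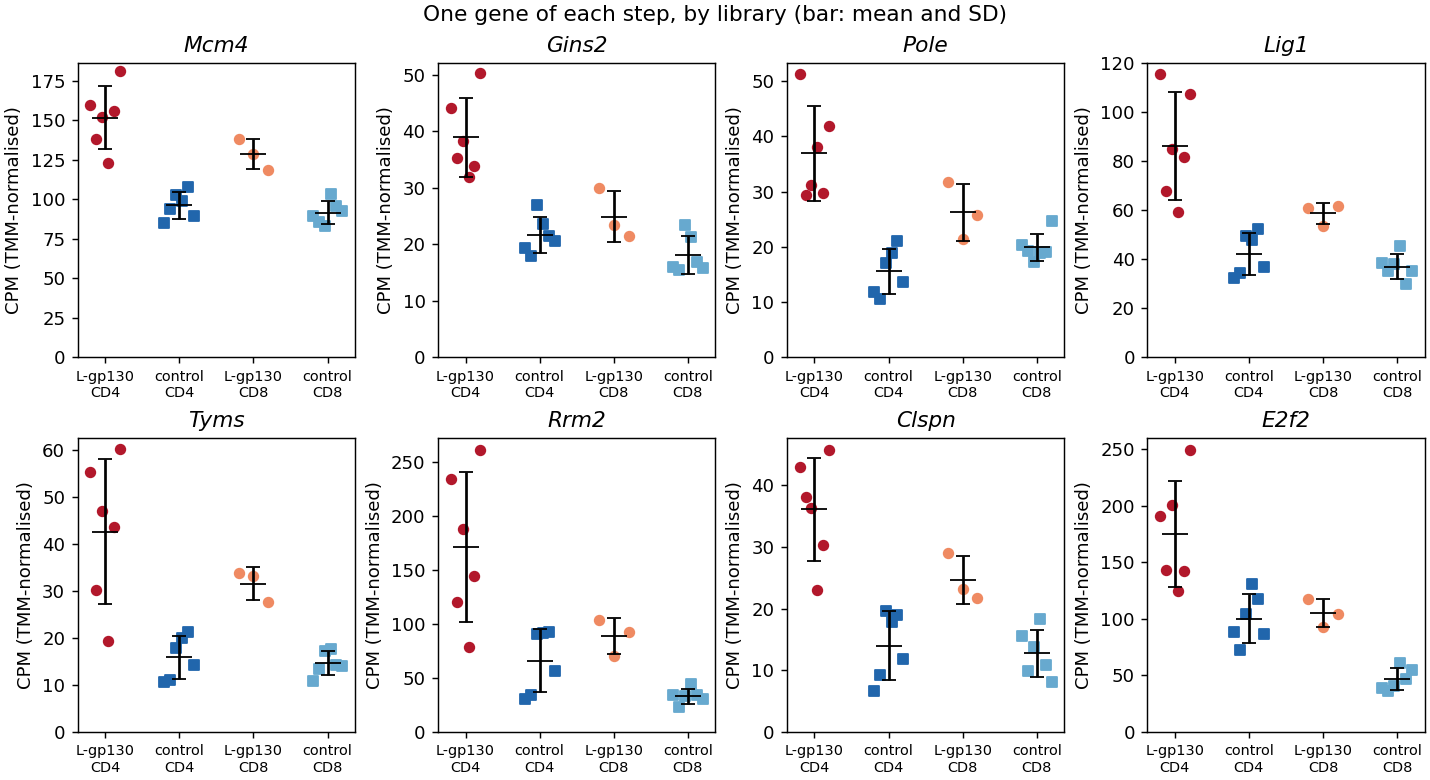
CPM per library (points), group mean (long line) and SD (error bar) of 8 genes, with L-gp130 left of control within CD4 and within CD8 cells. The groups of Mcm4, Gins2, Pole, Lig1 and Clspn do not overlap in CD4 cells, whereas those of Tyms, Rrm2 and E2f2 do through L-gp130 replicate 4.

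Of the 3 chromatin assembly and checkpoint genes, 2 were called higher, with a median log2 fold change of 1.38. Clspn, which relays the stalled-fork signal to Chk1, had 23.1 to 45.8 CPM with a median of 37.2 in L-gp130 and 6.54 to 19.6 CPM with a median of 14.8 in control CD4 cells. Its groups did not overlap, and at 1.74 ± 0.28 it had the highest log2 fold change among the 12 genes called in every fit that left out a library (edgeR adjusted p = 0.00134). Chaf1a, the large subunit of the histone chaperone CAF-1, was at 1.38 ± 0.28 (edgeR adjusted p = 0.00567), although 4648 of its 8854 exon bases overlap Ubxn6. Chaf1b, a smaller subunit of the same chaperone, had 18.8 to 33.3 CPM with a median of 24.7 in L-gp130 and 15.0 to 23.7 CPM with a median of 19.3 in control CD4 cells, with overlapping groups, and was not called (0.33 ± 0.18, edgeR adjusted p = 0.232).

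The 4 E2F and cyclin E genes, which drive entry into S phase, were all called higher, with a median log2 fold change of 1.11. E2f2, an E2F that activates S phase genes and is also abundant in erythroid precursors, had 124 to 249.5 CPM with a median of 167 in L-gp130 and 72.3 to 131 CPM with a median of 96.0 in control CD4 cells. Only L-gp130 replicate 4 fell within the control range. The log2 fold change was 0.93 ± 0.21 (edgeR adjusted p = 0.00994), and the call was lost without L-gp130 CD4 replicate 6 (adjusted p = 0.101). Ccne1, a cyclin that activates Cdk2 at the start of S phase, had 17.4 to 49.0 CPM with a median of 28.8 in L-gp130 and 10.1 to 19.8 CPM with a median of 17.2 in control CD4 cells. Its groups overlapped through L-gp130 replicate 4, the log2 fold change was 1.12 ± 0.31 (edgeR adjusted p = 0.0272), and the call was lost without L-gp130 CD4 replicate 6 (adjusted p = 0.161), without control CD4 replicate 1 (adjusted p = 0.143) and without control CD4 replicate 6 (adjusted p = 0.0528). E2f1 stood at 1.11 ± 0.26 and Ccne2 at 1.67 ± 0.43.

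**Figure D3:**
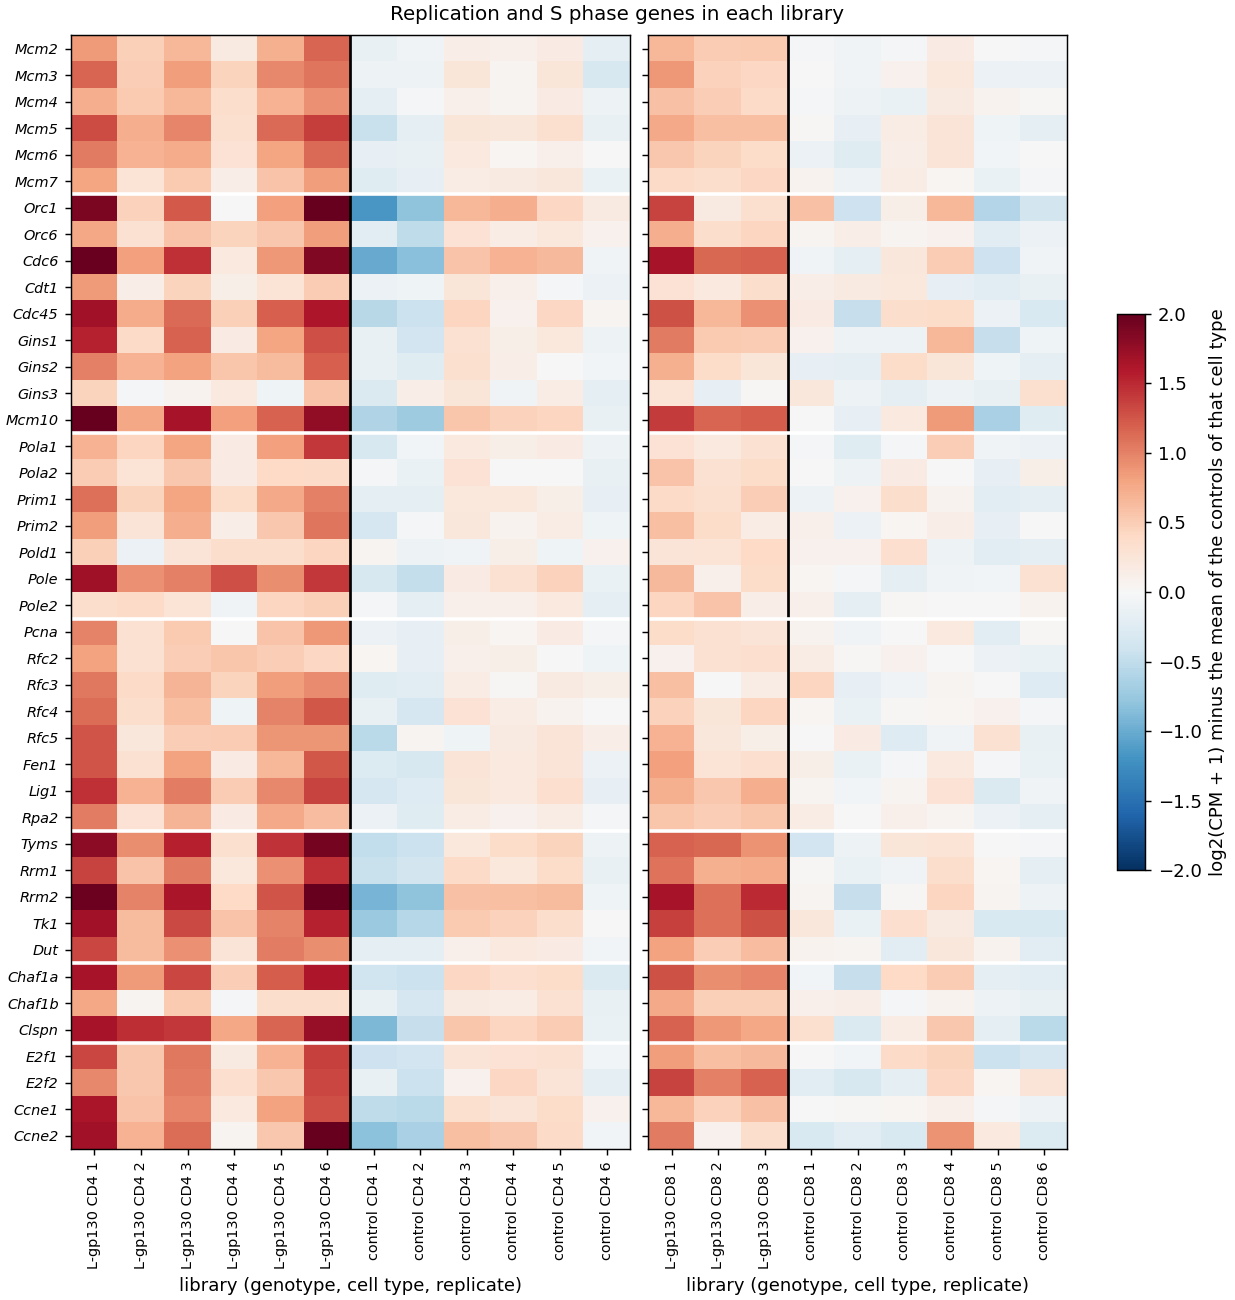
Heat map of log2(CPM + 1) of the 42 genes in each library minus the control mean of the same cell type, with L-gp130 columns left of control columns, colours limited to 2 on either side of 0, and white lines between roles. L-gp130 CD4 replicates 1 and 6 are the highest columns and replicate 4 is the lowest L-gp130 column.

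Genes of other cells moved with these libraries. Haemoglobin genes (Hbb-bs, Hbb-bt, Hba-a1 and Hba-a2) summed to 6531 to 36031 CPM in L-gp130 and 4674 to 25649 CPM in control CD4 cells, with 0 of 4 called and the highest sum in L-gp130 replicate 6. The 10 erythroid precursor genes (Klf1, Alas2 and others, without Tfrc, which dividing T cells also express) summed to 313 to 4275 CPM in L-gp130 and 139 to 1622 CPM in control CD4 cells, with 0 of 10 called. All 11 genes of the list with Tfrc nonetheless had positive fold changes, with a median log2 fold change of 1.93 (0.88 to 2.24), above the median of 0.90 over the 42 genes, and Tfrc was called. L-gp130 replicate 6 had the highest of these sums and replicate 4 the lowest in its group. Plasma cell genes summed to 184 to 300.0 CPM in L-gp130 and 112 to 161 CPM in control CD4 cells, and 3 of the 6 tested were called higher (T cells also make Xbp1 and Prdm1 of this list). T cell genes (Cd3d, Cd3e, Lck and others) summed to 2909.7 to 4071 CPM in L-gp130 and 3099.5 to 3889 CPM in control CD4 cells, and 1 of 8, Cd247, was called lower. Germinal centre B cell genes (S1pr2, Mybl1 and others) summed to 18.2 to 29.3 CPM in L-gp130 and 14.8 to 17.2 CPM in control CD4 cells, which do not overlap, and 1 of the 4 tested, Mybl1, was called higher. B cell genes summed to 232 to 596 CPM in L-gp130 and 249 to 916 CPM in control CD4 cells, with 3 of 7 called lower and a median log2 fold change of -1.15. Monocyte and macrophage genes had 1531 CPM in L-gp130 replicate 1, a library high in the 42 genes, against 355 to 562 CPM in the other L-gp130 and 414 to 801 CPM in control CD4 libraries, with 0 of 6 called. Granulocyte precursor genes summed to 69.4 CPM in L-gp130 replicate 6 and 27.99 CPM in replicate 1, the libraries with the highest 42-gene sums. The other L-gp130 CD4 libraries had 4.69 to 6.51 CPM. Control CD4 libraries had 0.799 to 16.3 CPM, the most in replicate 1, which had the lowest 42-gene sum. Of these genes 3 were tested and 0 called, with a median log2 fold change of 1.65. No erythroid or T cell marker was at 0 in any library. With the haemoglobin sum as a further covariate, 35 of the 42 genes were called higher in L-gp130 CD4 cells and the median log2 fold change was 0.76. With the erythroid precursor sum in its place, added after seeing the data, 24 were called and the median was 0.59. With the plasma cell sum, also added after seeing the data, 0 were called and the median was 0.71. Calls fell over all 15016 genes tested too, from 1673 called higher to 1506 with the haemoglobin, 975 with the erythroid precursor and 255 with the plasma cell sum. The plasma cell sum does not overlap between the genotypes, so it can hardly be told apart from genotype. The part of these cells in the result was not tested.

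**Figure D4:**
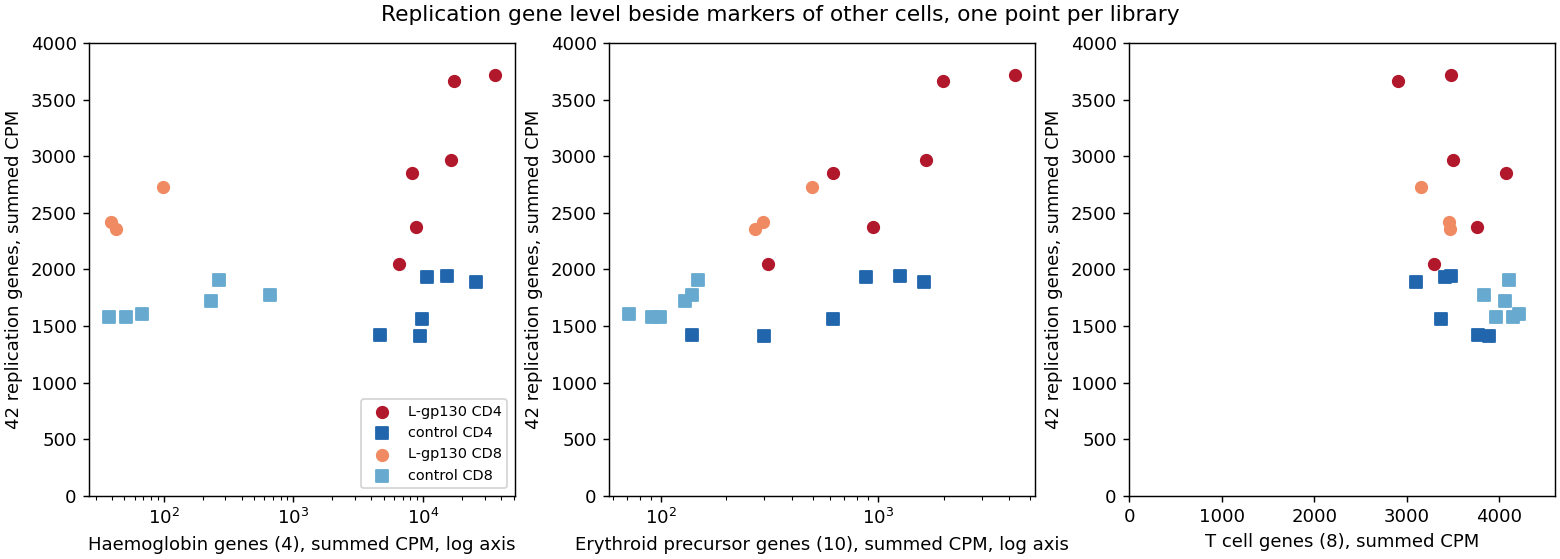
Summed CPM of the 42 genes in each library (linear axis) against the summed CPM of haemoglobin genes and of erythroid precursor genes without Tfrc (log axes) and of T cell genes (linear axis), in CD4 and CD8 libraries (L-gp130 and control as separate colours). In CD4 cells the sum of the 42 genes is highest in L-gp130 replicate 6 (3719 CPM), which also has the highest haemoglobin sum (36031 CPM).

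Within a genotype the same co-variation was read library by library. Each gene's log2(CPM + 1) was correlated with the log2 sum of haemoglobin genes and with that of T cell genes in the 3 groups of 6 libraries, which makes 252 relations, each tested by an exact permutation over all 720 pairings. No relation reached an adjusted p under 0.05, and the smallest was 0.175. The smallest p that 720 pairings can give is 0.00139, so over 252 relations a single relation could not reach that threshold. The lack of calls therefore does not show a lack of relation. With haemoglobin, Pearson's r was positive for all 42 genes in L-gp130 CD4 cells (median r = 0.82, and 0.73 without the 2 libraries farthest from the median), for 41 genes in control CD4 cells (median 0.71, then 0.68) and for 37 genes in control CD8 cells (median 0.59, then 0.79). The genes share libraries and move together, so these counts are a description. With T cell genes, r was positive for 2 genes in L-gp130 CD4 cells (median r = -0.33), for 0 in control CD4 cells (median -0.70) and for 16 in control CD8 cells (median -0.22). Without the 2 farthest libraries, r with T cell genes was positive for 29 genes in L-gp130 CD4 cells, 1 in control CD4 cells and 25 in control CD8 cells.

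Examples were chosen after their values were seen. Gins2 was among the genes tied at the smallest adjusted p of the 252, with r = 0.97 and Spearman's rho = 1 against haemoglobin in L-gp130 CD4 cells. Its exact permutation p-values of 0.00139 and 0.00278 are the smallest that the pairings can give (adjusted p = 0.175 and 0.233). Without the 2 farthest libraries r was 0.89. For E2f2 against haemoglobin, r was 0.99 in L-gp130 CD4 cells (exact permutation p = 0.00417, adjusted p = 0.219, rho = 0.94 with exact p = 0.0167 and adjusted p = 0.24, and r = 0.98 without the 2 farthest libraries). It was 0.96 in control CD4 cells (exact permutation p = 0.00278, adjusted p = 0.219, rho = 0.94 with exact p = 0.0167 and adjusted p = 0.24, and r = 0.92 without the 2 farthest) and 0.05 in control CD8 cells (exact permutation p = 0.922, adjusted p = 0.945, rho = 0.37 with exact p = 0.497 and adjusted p = 0.663, and r = 0.0015 without the 2 farthest). For Pold1 against T cell genes, r was -0.95 in control CD8 cells (exact permutation p = 0.00556, adjusted p = 0.219, rho = -0.89 with exact p = 0.0333 and adjusted p = 0.24, and r = -0.85 without the 2 farthest). Against the erythroid precursor sum without Tfrc, added after seeing the data as 126 further relations, the median r was 0.84 in L-gp130 CD4, 0.86 in control CD4 and 0.63 in control CD8 cells, positive for 42, 42 and 38 genes, and the smallest adjusted p was 0.0737.

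In CD8+ T cells the same 42 genes also had positive fold changes throughout, with a median log2 fold change of 0.55, against -0.01 over all 14254 genes tested. edgeR called 29 higher in L-gp130 and 0 lower, where 10.5% of all genes were called higher and 10.5% lower. In the same 29 genes every L-gp130 library lay above every control, which 11.7% of all genes tested showed, and 9.1% showed with a call. The 42 genes summed to 2359 to 2729 CPM in L-gp130 and 1580.3 to 1910.3 CPM in control CD8 cells. L-gp130 replicate 1 was the highest of its group for 33 genes. Leaving out 1 library in turn gave 18 (without L-gp130 replicate 1) to 32 genes called higher, with 21 without L-gp130 replicate 3. With the 3 controls numbered 4 to 6 alone it was 29, and with those numbered 1 to 3 alone 27. In this comparison 18 genes were called in every fit that left out a library, namely Mcm2, Mcm3, Mcm4, Mcm5, Mcm7, Cdc6, Pola2, Lig1, Rpa2, Tyms, Rrm1, Rrm2, Tk1, Dut, Chaf1a, Chaf1b, E2f2 and Ccne1.

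The gene with the smallest adjusted p in CD8 cells was Mcm2, another helicase subunit, with 157, 140.5 and 143 CPM in the L-gp130 libraries and 93.5 to 110.3 CPM with a median of 97.3 in control CD8 cells. All 3 L-gp130 values lay above the controls, and the log2 fold change was 0.57 ± 0.07 (SE, n = 3 and 6, edgeR adjusted p = 0.000531). Nucleotide supply followed, with all 5 genes called and a median log2 fold change of 1.12. Rrm2 had 103, 70.4 and 92.9 CPM in L-gp130 and 23.1 to 43.8 CPM with a median of 33.2 in control CD8 cells, which is 1.44 ± 0.17 on the log2 scale (edgeR adjusted p = 0.000663). Tk1 had 35.2, 29.1 and 32.9 CPM in L-gp130 and 10.3 to 16.6 CPM with a median of 13.3 in control CD8 cells, or 1.29 ± 0.16 on the log2 scale (edgeR adjusted p = 0.000667). In both genes the lowest L-gp130 library lay well above the highest control. Rrm1 had 127, 97.9 and 101 CPM in L-gp130 and 52.2 to 76.4 CPM with a median of 58.6 in control CD8 cells, for 0.85 ± 0.11 (edgeR adjusted p = 0.000752). Tyms had 33.8, 33.2 and 27.5 CPM in L-gp130 and 10.8 to 17.6 CPM with a median of 14.1 in control CD8 cells, for 1.12 ± 0.15 (edgeR adjusted p = 0.000872). Dut had 70.9, 57.0 and 62.4 CPM in L-gp130 and 34.4 to 47.4 CPM with a median of 42.2 in control CD8 cells, for 0.66 ± 0.09 (edgeR adjusted p = 0.00113). These 3 enzymes were also free of overlap between the groups.

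By role, all 6 helicase subunits were called higher in L-gp130 CD8 cells (median log2 fold change 0.53), 4 of 9 origin genes (0.79), 3 of 7 polymerase and primase genes (0.40), 5 of 8 clamp, loader and joining genes (0.39), all 3 chromatin assembly and checkpoint genes (0.96) and 3 of 4 E2F and cyclin E genes (0.64). The E2F gene E2f2 was at 1.18 ± 0.16 (edgeR adjusted p = 0.00114), with 118, 93.0 and 104 CPM in L-gp130 and 36.2 to 61.1 CPM with a median of 43.6 in control CD8 cells. Chaf1b, not called in CD4 cells, was called in CD8 cells at 0.59 ± 0.10 (edgeR adjusted p = 0.00229), with 34.8, 28.5 and 28.7 CPM in L-gp130 and 18.1 to 22.2 CPM with a median of 20.5 in control CD8 cells, which do not overlap. The other helicase subunits stood at 0.60 ± 0.11 for Mcm3, 0.49 ± 0.07 for Mcm4, 0.65 ± 0.10 for Mcm5, 0.45 ± 0.10 for Mcm6 and 0.38 ± 0.07 for Mcm7. The origin genes called were Cdc6 at 1.41 ± 0.21, Mcm10 at 1.29 ± 0.29, Cdc45 at 1.02 ± 0.23 and Orc6 at 0.53 ± 0.12. Of the polymerase and primase genes, Pola2 at 0.43 ± 0.09, Pole2 at 0.41 ± 0.12 and Prim2 at 0.40 ± 0.13 were called. Of the 9 fits that left out a library, the call of Prim2 (edgeR adjusted p = 0.0467) was held in 1, that of E2f1 in 3, that of Pole2 in 4 and that of Pcna in 5. Lig1 was at 0.67 ± 0.12, Rpa2 at 0.54 ± 0.08, Fen1 at 0.50 ± 0.12, Rfc4 at 0.41 ± 0.11 and Pcna at 0.30 ± 0.08. Chaf1a was at 1.07 ± 0.21, Clspn at 0.96 ± 0.21, E2f1 at 0.70 ± 0.21 and Ccne1 at 0.59 ± 0.09.

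Of the 13 genes not called in CD8 cells, Gins1 had the largest log2 fold change (0.81 ± 0.28, edgeR adjusted p = 0.0669) and Gins3 the smallest (0.05 ± 0.18, edgeR adjusted p = 0.872). The polymerase genes among them were Pole at 0.40 ± 0.14 (edgeR adjusted p = 0.0683), Prim1 at 0.40 ± 0.13, Pold1 at 0.30 ± 0.11 and Pola1 at 0.26 ± 0.15 (edgeR adjusted p = 0.256). The clamp loader subunits Rfc5, Rfc3 and Rfc2 stood at 0.36 ± 0.12, 0.28 ± 0.18 and 0.25 ± 0.09. Orc1 was at 0.79 ± 0.44, Ccne2 at 0.56 ± 0.32, Gins2 at 0.46 ± 0.17 and Cdt1 at 0.27 ± 0.11. Each of these 13 had at least 1 control library above the lowest L-gp130 library.

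Some markers of other cells moved with genotype in CD8 cells too. Erythroid precursor genes without Tfrc summed to 272 to 498 CPM in L-gp130 and 71.1 to 149 CPM in control CD8 cells, and 6 of 10 were called higher. Haemoglobin genes summed to 39.3 to 99.8 CPM in L-gp130 and 37.7 to 662 CPM in control CD8 cells, with 0 of 4 called. Their fold changes were all negative, unlike most of the erythroid precursor genes, with a median log2 fold change of -1.58. Of the B cell genes 0 of 7 were called, of the granulocyte precursor genes 0 of 6 and of the germinal centre B cell genes 0 of the 3 tested. Among monocyte and macrophage genes 1 of 6 was called lower, and among megakaryocyte and progenitor genes 1 of 5 higher. T cell genes summed to 3155 to 3465 CPM in L-gp130 and 3842 to 4218 CPM in control CD8 cells, with 5 of 8 called lower, and plasma cell genes to 134 to 423 CPM in L-gp130 and 62.7 to 143 CPM in control CD8 cells, with 1 of 7 called higher. With the erythroid precursor sum as a further covariate, 0 of the 42 genes were called and the median log2 fold change was 0.09, and with the plasma cell sum 7 were called (median 0.46), both settings added after seeing the data. Calls fell over all 14254 genes tested too, from 1495 called higher to 20 with the erythroid precursor sum and 338 with the plasma cell sum. The erythroid sums of the genotypes do not overlap, so that covariate and genotype can hardly be told apart. With the haemoglobin sum 34 were called (median 0.62). The part of these cells in the result was not tested.

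The lists of genes called in the 2 cell types met in 28 genes, which is 75.7% of the 37 called in CD4 cells and 96.6% of the 29 called in CD8 cells. Of the 13819 genes tested in both, 4.88% were called higher in both. Another 9 were called in CD4 cells alone, Chaf1b in CD8 cells alone, and Orc1, Cdt1, Gins3 and Pold1 in neither. Being called in only 1 of the cell types does not show a difference, so an interaction of genotype with cell type, fitted over all 21 libraries, tested the difference itself. The labels do not say whether CD4 and CD8 libraries with the same mouse number came from 1 mouse, and all libraries were treated as independent. edgeR called 0 of the 42 genes in that test, where 1.83% of 15758 genes were called with a higher effect in CD4 cells and 1.62% with a lower one, and DESeq2 also called 0. At an unadjusted p under 0.05 there were 5, namely Rfc2, Prim1, Pola1, Mcm6 and Pole, each with the larger effect in CD4 cells. Over all genes tested, 2754 of 15758 were under that unadjusted p, in either direction, so 5 of 42 is no larger a share. The differences were positive for 37 genes, with a median of 0.25 on the log2 scale, against 0.04 over all genes tested. That median was 0.11 without L-gp130 CD4 replicate 6, 0.15 without control CD4 replicate 1 and 0.15 without L-gp130 CD8 replicate 3. With 1 library left out, the number at an unadjusted p under 0.05 ran from 0 (without L-gp130 CD4 replicate 6 or L-gp130 CD8 replicate 2) to 10 (without L-gp130 CD4 replicate 4). In the fit without L-gp130 CD4 replicate 4, 3232 of all 15732 genes tested were under that p. For Pole the difference was 0.59 with a 95% interval of 0.05 to 1.14 (edgeR adjusted p = 0.278), for Pola1 0.56 with 0.06 to 1.06 (adjusted p = 0.264), and for Mcm6 0.38 with 0.04 to 0.73 (adjusted p = 0.265). For E2f2 it was -0.05 with -0.73 to 0.63 (adjusted p = 0.966), and for Rrm2 0.13 with -0.87 to 1.12 (adjusted p = 0.934). A p that misses the threshold does not show equal effects. Over the 42 genes, the CD4 and CD8 fold changes ranked alike with a Spearman rho of 0.73, given as a description because genes share libraries.

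Between control cells of the 2 types, 1 of the 42 genes was called higher in CD4 than in CD8 cells and 11 lower, where 24.3% and 27.2% of all 15758 genes were, 51.4% together. The gene that was higher was E2f2, whose log2 ratio of CD4 over CD8 was 0.81 ± 0.24 (edgeR adjusted p = 0.00805). The genes that were lower were Mcm3, Mcm6, Cdt1, Pola2, Prim1, Pold1, Pole, Rfc2, Rfc5, Rpa2 and Ccne1. Cdt1 was at -0.81 ± 0.12 (edgeR adjusted p = 1.53e-05) and Rfc2 at -0.34 ± 0.07 (edgeR adjusted p = 0.000329). Cell type cannot be told apart from the isolation method here, since CD4+ cells were bead-bound and CD8+ cells untouched. Markers of other cells differed too. All 4 haemoglobin genes were called higher in control CD4 cells (median log2 ratio of CD4 over CD8 5.45), as were 4 of 11 erythroid precursor genes (1.14) and all 7 B cell genes (3.98), while 4 of 6 granulocyte precursor genes were called lower (-5.77). Their part in the order of the 42 genes was not tested.

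Levels were compared between genes per length, as TPM. Pcna had the highest group mean in all 4 groups, 267 ± 54.0 TPM in L-gp130 CD4, 192 ± 22.8 in control CD4, 241 ± 12.6 in L-gp130 CD8 and 190.2 ± 19.0 in control CD8 cells (SD, n = 6, 6, 3 and 6). Orc1 had the lowest in all 4, 4.61 ± 2.55, 2.10 ± 1.20, 2.58 ± 1.53 and 1.42 ± 0.724 TPM in the same order of groups. The medians over the 42 genes were 28.9, 18.7, 24.7 and 15.1 TPM. By TPM, which carries no TMM factors, group means were highest in L-gp130 CD4 cells for 35 genes and in L-gp130 CD8 cells for 7. They were lowest in control CD8 cells for 31 and in control CD4 cells for 11. The TMM-normalised fit gave another order of the controls, with 13 of 42 log2 ratios of CD4 over CD8 positive and a median of -0.16. The order of the groups by TPM is therefore no result about cell type. Genes with low control levels had the higher fold changes. Spearman's rho between log2 fold change and control TPM was -0.47 in CD4 and -0.38 in CD8 cells over the 42 genes. The same control libraries enter both values, which by itself can push rho below 0, so this is a description only.

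Another 76 replication and S phase genes were listed by role. In CD4 cells 43 were called higher in L-gp130 and 1 lower (median log2 fold change 0.41), and in CD8 cells 23 were called higher and 4 lower (median 0.19). Over all genes tested, 11.1% were called higher and 7.75% lower in CD4 cells, and 10.5% higher and 10.5% lower in CD8 cells. Of 18 other origin and fork factors, 11 were called higher in CD4 and 4 in CD8 cells, led in CD4 cells by Dbf4, which activates the origin kinase Cdc7 (0.73 ± 0.11, edgeR adjusted p = 0.000727), and Wdhd1, a fork adaptor (0.97 ± 0.16, adjusted p = 0.00142). In CD8 cells Recql4, a helicase that acts at origins, led at 1.33 ± 0.25 (edgeR adjusted p = 0.00471) before Wdhd1 at 0.78 ± 0.16 (adjusted p = 0.00795). Of 15 further polymerase, clamp and RPA subunits, 5 were called higher in CD4 cells, with Pold3, an accessory subunit of polymerase delta, at 0.42 ± 0.09 (edgeR adjusted p = 0.00796) and Chtf18, part of a clamp loader for cohesion, at 0.96 ± 0.24 (adjusted p = 0.0138). In CD8 cells 1 was called higher, the flap nuclease Dna2 at 1.21 ± 0.18 (edgeR adjusted p = 0.00132), and 1 lower, the polymerase epsilon subunit Pole4 at -0.34 ± 0.08 (adjusted p = 0.0124), shares no higher than those over all genes.

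Of 8 other nucleotide genes, 5 were called higher in CD4 cells, led by Dck, a salvage kinase (0.64 ± 0.09, edgeR adjusted p = 0.000629). In CD8 cells 4 were called higher, led by the nucleotide kinases Nme1 at 0.57 ± 0.09 (edgeR adjusted p = 0.00154) and Dtymk at 0.30 ± 0.07 (adjusted p = 0.0153), while Rrm2b, the p53-responsive subunit of ribonucleotide reductase, was lower at -0.46 ± 0.13 (adjusted p = 0.0297). Of 9 S phase chromatin genes, 8 were called higher in CD4 cells, with the chromatin remodeller Hells at 1.28 ± 0.14 (edgeR adjusted p = 8.89e-05). In CD8 cells 4 were called, among them Slbp, which binds histone mRNA, at 0.37 ± 0.06 (edgeR adjusted p = 0.00271). Of 26 E2F, RB and G1-S regulators, 14 were called higher and 1 lower in CD4 cells. Tfdp1, the partner of E2F proteins, was at 0.94 ± 0.11 (edgeR adjusted p = 0.000108) and the G1 kinase Cdk6 at 0.68 ± 0.10 (adjusted p = 0.000458). The G1 cyclin gene Ccnd2 was lower at -0.65 ± 0.09 (edgeR adjusted p = 0.000458). In CD8 cells 10 were called higher and 2 lower. Tfdp1 was at 0.87 ± 0.10 (edgeR adjusted p = 0.000325) and cyclin A2, Ccna2, at 1.57 ± 0.22 (adjusted p = 0.00151). Ccnd2 was again lower at -0.71 ± 0.18 (edgeR adjusted p = 0.0208), and so was the kinase inhibitor gene Cdkn1b at -0.36 ± 0.06 (adjusted p = 0.00336). Of the 76 genes, the interaction called 2 with the more positive effect in CD4 cells and 0 with the less positive one. Over all 15758 genes tested, 1.83% and 1.62% were called, so this count is near the share over all genes. The 2 were Gins4, the remaining GINS subunit, with a difference of 0.41 (edgeR adjusted p = 0.0243), and Cdkn1b with 0.39 (adjusted p = 0.028).

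**Figure D5:**
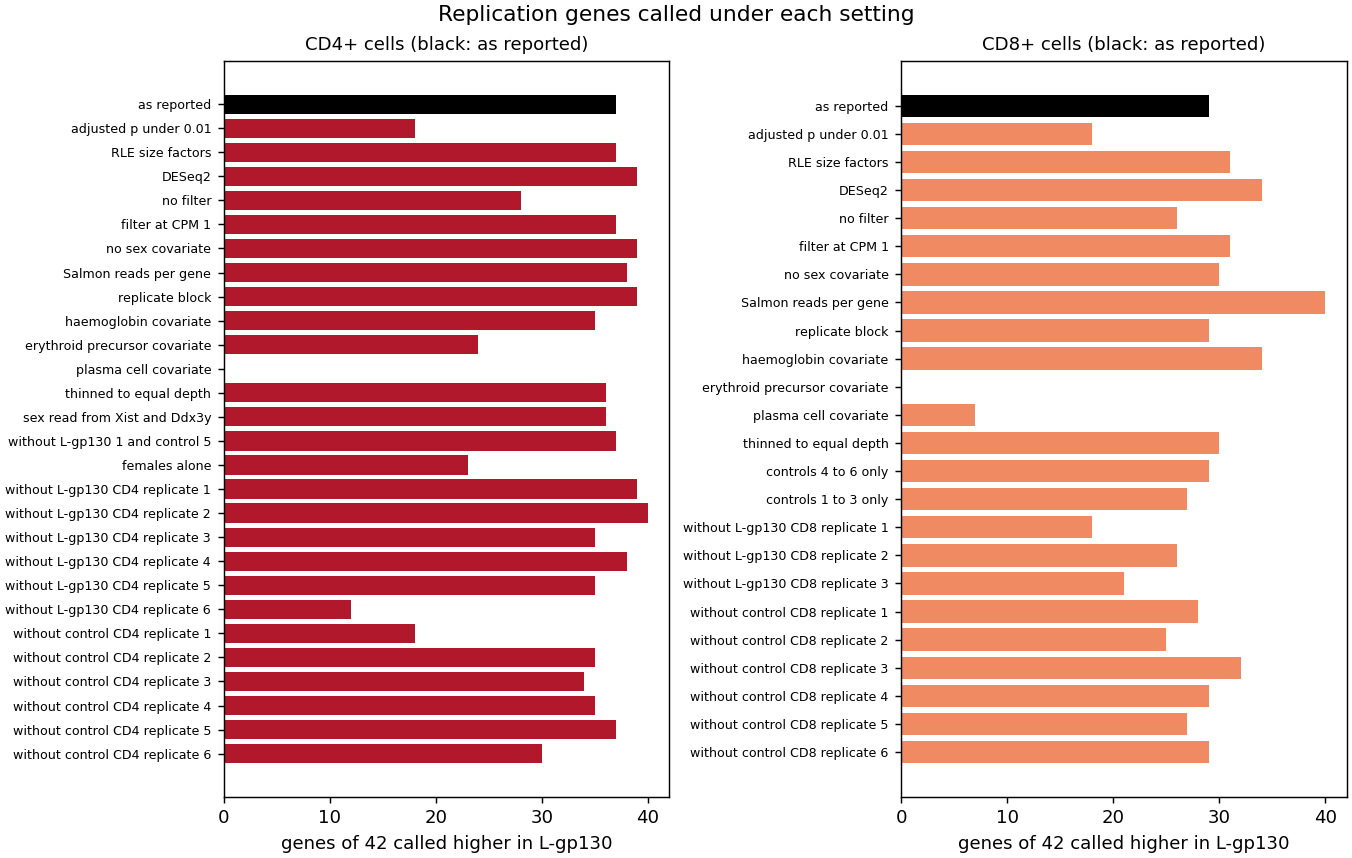
Number of the 42 genes called higher in L-gp130 under each processing setting, in CD4 and CD8 cells. The reported counts are 37 and 29, and the lowest are 0 with the plasma cell covariate in CD4 cells and 0 with the erythroid precursor covariate in CD8 cells. In those settings 255 of all 15016 and 20 of all 14254 genes tested were called higher.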

How the data were processed

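RNA sequencing libraries were grouped by the labels. Per the submitters' processing notes, the tools were cutadapt 3.4, Trimmomatic 0.39, Salmon 1.5.2 and edgeR 3.34.1 with build GRCm38. Gene tables deposited by the authors, 1 for CD4 and 1 for CD8 libraries, hold estimated counts per gene. The separate Salmon output of each library holds, per the file headers, estimated counts (reads) and TPM per transcript. The step from transcripts to the gene tables was not given in the sources used here. Names came from GENCODE mouse release 21 (51115 of 51201 gene IDs matched), and 694 transcripts matched no gene. Rounded estimated counts went into edgeR 4.0.16 under R 4.3.3, with filterByExpr, TMM factors and a robust quasi-likelihood F test (2-sided, called at a Benjamini-Hochberg adjusted p under 0.05), with labelled sex as covariate and the 2 tables fitted separately. The interaction and the control CD4 and CD8 comparison used all 21 libraries, on Salmon reads summed per gene. SE is the log2 fold change divided by the square root of F, and the 95% interval of a difference is 1.96 SE to each side. TPM, without TMM factors, was summed per gene and used to compare levels between genes and to order the group means of each gene.

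The 42 genes and the lists beside them were chosen with earlier results of these data known. Values by library, as lowest, median and highest in groups of 6 and singly in the group of 3, are given for the genes with the smallest and largest adjusted p of each role in CD4 cells and for the 6 smallest in CD8 cells, and the 2 smallest per list and any called member that moves against its list are named for other lists, apart from a few genes not reported here. The lowest chi-square per gene between libraries of a group was 9.75, so none looked deposited again. Precision is limited by 3 or 6 libraries per group. Alternatives were DESeq2 1.42.0, RLE factors, other filters, no sex term, Salmon reads, thinning to equal depth, further covariates, subsets of libraries, replicate blocks and fits without each library in turn. Correlations used log2(CPM + 1). Exons of 15 of the 42 genes overlap another gene and can take up its reads in unstranded libraries.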

Additional observations from a re-analysis of the deposited data

Results flagged for a closer look

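In 5 of 126 sets of 6 libraries (42 genes in the 3 groups of 6), 1 library lay apart from its group by Dixon's ratio at its 95% limit, and chance alone gives about 6.3. Control CD8 replicate 4 was the high library in 4 of them. It had 110.3 CPM of Mcm2 (nearest library 98.2), 29.3 CPM of Pola1, 76.4 CPM of Rrm1 (nearest 61.1) and 11.5 CPM of Ccne2 (nearest 6.58). In control CD4 cells, replicate 3 had 54.2 CPM of Pola2 (nearest 44.5). Without control CD8 replicate 4, 29 of the 42 genes were called higher in L-gp130 CD8 cells, and without control CD4 replicate 3, 34 were called higher in L-gp130 CD4 cells.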

How the results depend on the processing

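No direction changed in CD4 cells under the 27 settings run. The number of the 42 genes called higher there (37) was 28 with no filter and was 35 to 39 with RLE factors, DESeq2, a filter at CPM 1, no sex term, Salmon reads, the haemoglobin covariate, thinning, sex taken from Xist and Ddx3y counts (36) and leaving out both doubted libraries. It was 18 at an adjusted p under 0.01, 24 with the erythroid precursor covariate, 0 with the plasma cell covariate, 23 in the libraries labelled female alone and 12 to 40 with 1 library left out. All genes called higher (1673) came to 811, 975 and 255 in the first 3 of these settings and 825 to 1986 with a library left out, and all called lower (1163) to 461, 540 and 79, to 1776 with no sex term and to 562 to 1656. In CD8 cells the 29 became 18 at the stricter p, 0 with the erythroid and 7 with the plasma cell covariate, and 18 to 32 with 1 library left out. All genes called higher (1495) became 706, 20 and 338, and 762 to 1480.0, and those called lower (1501) 543, 36 and 283, and 612 to 1487. With the erythroid covariate in CD8 cells, log2 fold changes turned negative for Orc1 (-1.75), Ccne2 (-0.72), Rfc3 (-0.50), Gins2 (-0.40), Cdc45 (-0.38), E2f1 (-0.35), Clspn (-0.29), Gins1 (-0.28), Pola1 (-0.27), Fen1 (-0.14), Chaf1a (-0.12), Pold1 (-0.048), Prim1 (-0.046) and Prim2 (-0.026), and the cause was not tested. Rfc3 was at -0.035 with the plasma cell covariate, and Gins3 at -0.057 on Salmon reads and at -0.12 to 0.16 with a library left out, below 0 without L-gp130 CD8 replicate 1 or control CD8 replicate 3. For the interaction, genes called with a higher effect in CD4 cells (289) became 99 at the stricter p, 478 with DESeq2, 148 with no filter, 165 on the joined gene tables and 103 to 575 with a library left out, and with a lower effect (256) 96, 477 with DESeq2 and 133 to 409. Between control cells, 3 of the 42 genes were higher in CD4 cells with DESeq2 or no sex term, and 1 to 3 with a library left out. Those lower in CD4 cells (11) became 6 at the stricter p, 7 with no filter or on the joined tables, and 6 to 12. Positive r with T cell genes went to 1 gene in L-gp130 CD4 cells without TMM factors and to 29, 1 and 25 genes in L-gp130 CD4, control CD4 and control CD8 cells without the 2 farthest libraries. Deviations of same-numbered libraries of the genotypes had correlations from -0.29 to 0.219, which cannot settle whether the mice were paired. The replicate numbers were therefore not used as a pairing in the reported fits. With them as a replicate block, 39 genes were called in CD4 cells and 29 in CD8 cells.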
